A study of Mus musculus with 15 samples.

Results

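RNA from Tak1-deficient CD4 single-positive thymocytes at the SM&M1 stage was compared with RNA from Tak1-sufficient thymocytes of the same stage, across all genes measured. The comparison uses 6 of the 15 arrays of the series, 3 for each genotype, chosen by the sample labels alone. SM&M1 cells are newly formed CD4 single-positive thymocytes, semimature and early mature, sorted as Qa2-negative and CD69-positive from thymus of young adult mice on the C57BL/6 background. The Tak1-sufficient cells (called SM&M1 here) came from mice carrying a Rag2-GFP BAC transgene, a reporter that marks recently formed T cells. Their sort left out cells stained for NK1.1, CD25 or GL3 and used the Rag2-GFP level to leave out recirculating T cells. The Tak1-deficient cells came from Tak1f/f CD4Cre mice, in which Cre driven by Cd4 regulatory sequence deletes the floxed gene in thymocytes from the double-positive stage on. The labels give them the same Qa2 and CD69 phenotype, and do not say whether the other gates were used. The control mice were therefore not Cre-expressing littermates, and genotype, mouse line and sorting gates cannot be told apart. The other 9 arrays hold double-positive thymocytes before (PreDP) and after (PostDP) T cell receptor signalling, both from B2m-/- mice, and later CD4 single-positive M2 cells (Qa2-positive, CD69-negative) from the Rag2-GFP mice. They serve for the estimate of spread and as levels of reference.

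TAK1, the product of Map3k7, is a kinase that joins antigen receptor, TNF receptor family and innate receptor signals to the IKK complex, which frees NF-κB to enter the nucleus, and to the MAP kinases. CD4 thymocytes that have passed positive selection mature through SM, M1 and M2 stages, gain the competence to leave the thymus, and express interferon-stimulated genes in response to low, constitutive type I interferon. In mice lacking TAK1 in T cells few mature T cells form, and the title of the study names NF-κB and tonic interferon signalling as its subject.

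Levels are log2(signal + 16) of 1 probe set per gene, and 3 values given for a group are its replicates 1, 2 and 3 in that order. Fold changes are Tak1-deficient minus SM&M1 on that log2 scale, with the standard error of the limma fit, so that a change of 1 is 2-fold. The array of Tak1-deficient replicate 2 stood apart. Its median signal was 167.81, against 80.52 to 121.46 in the other 14 arrays, its Actb 3′ to 5′ signal ratio was 1.62 against 1.02 to 1.18, and it correlated with the other 2 arrays of its group at 0.832 and 0.818, where those 2 correlated with each other at 0.976 and the pairs within each of the other groups at 0.964 or above. Each result is therefore given from a fit of all 15 arrays and from a fit of the 14 arrays without it. The arrays were scaled to a common trimmed mean of 500, and the number of arrays limits the precision.

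Among the genes called, falls outnumbered rises. Of 11871 genes tested, 201 were called at an adjusted p under 0.05 with 15 arrays (1.69%), of which 51 were higher (0.43%) and 150 lower (1.26%) in Tak1-deficient cells. With 14 arrays 347 were called (2.92%), 114 higher (0.96%) and 233 lower (1.96%). In both fits 170 were called, 39 higher and 131 lower, and all 170 had the same sign in both. Of the genes called only with 14 arrays, 4 had the opposite sign with 15 (Dscam, Nfkb2, Sall2 and Trmt1l). Of the 170, 101 changed at least 2-fold in both fits without overlap between the groups, 17 higher and 84 lower. Over all genes tested the 3 arrays of one group lay wholly above or below the other 3 for 2407 (20.3%). Of these, 1337 were higher and 1070 lower in Tak1-deficient cells, the reverse of the balance among calls. The median log2 fold change was 0.055 with 15 arrays and 0.041 with 14. The number of calls depended on single arrays. From 15 arrays it was 93, 69 and 65 without SM&M1 replicate 1, 2 or 3, and from 14 arrays it was 201 without SM&M1 replicate 1, 180 without SM&M1 replicate 3, 137 without Tak1-deficient replicate 1 and 100 without replicate 3. Of the 170 genes, 36 (6 higher, 30 lower) were called in each of 11 fits that left out 1 of these arrays, 6 of them from the 15 arrays and 5 from the 14; such genes are said below to be called in all leave-one-out fits. In fits of only these 2 groups, where the other stages lend no estimate of spread, 5 genes were called with 15 arrays and 136 with 14. The plot of both fits shows where the outlying array moved the values.

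**Figure D1:**
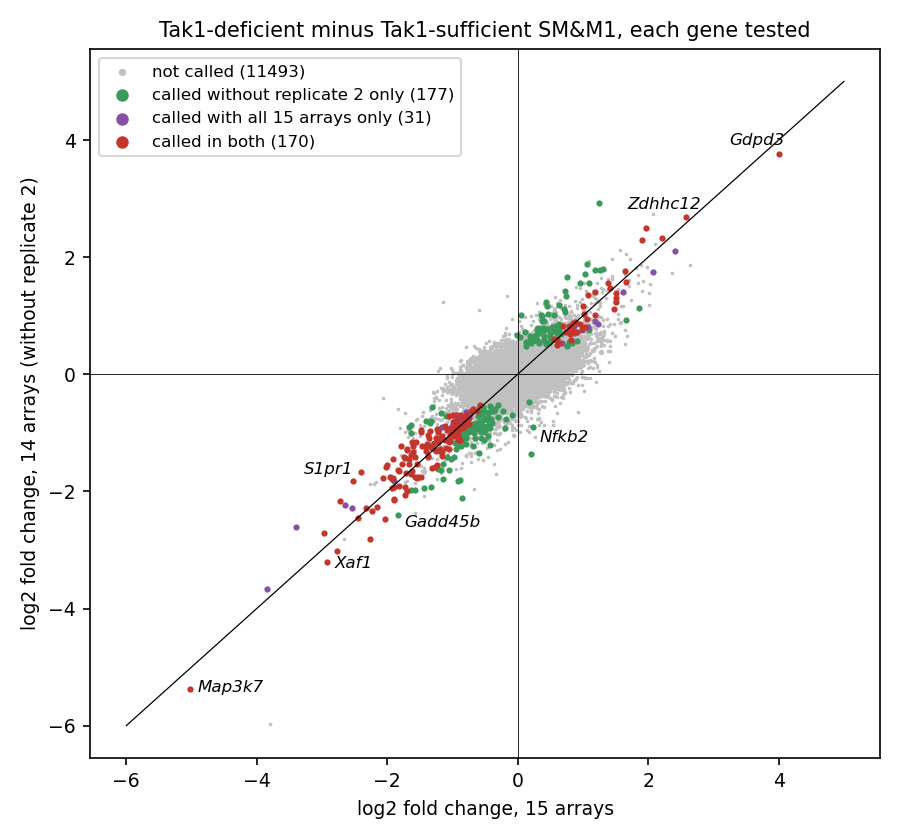
Log2 fold change of each of the 11871 genes tested, Tak1-deficient minus Tak1-sufficient SM&M1, from 15 arrays (horizontal axis) and from 14 arrays (vertical axis), with the line of equality. The 170 genes called in both fits (red) have the same sign on both axes, with Map3k7 lowest and Gdpd3 highest. Of the 177 called only without replicate 2 (green), 4 have opposite signs, Nfkb2 among them.

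Map3k7 itself was the most strongly reduced of the genes called. Its level was 10.40, 10.46 and 10.42 in SM&M1 and 4.76, 6.07 and 5.35 in Tak1-deficient cells. The SM&M1 arrays were tightly grouped, and every Tak1-deficient array lay far below them. The fold change was -5.03 ± 0.29 (adjusted p = 2.25e-06) with 15 arrays and -5.37 ± 0.24 (adjusted p = 4.5e-07) with 14, and PreDP, PostDP and M2 cells had means of 10.19, 10.08 and 10.11. All 6 probe sets of Map3k7 were lower, with fold changes of -3.30, -2.36, -2.11, -3.01 and -1.29 for the other 5 with 15 arrays. Only the last of these missed the threshold over all probe sets (adjusted p = 0.0814), and it passed with 14 arrays (fold change -0.78, adjusted p = 0.0489). Where the probe sets lie relative to the deleted part is not given in the sources used here. Replicate 2 had the highest of the 3 Tak1-deficient levels on the main probe set. Of the 100 genes tested nearest to Map3k7 in gene order, 50 on each side, 2 were called in each fit (2%), which is close to the background. They were Ggh, gamma-glutamyl hydrolase, 12 genes away, with a fold change of -1.31, and Penk, proenkephalin, 48 genes away, with -1.72.

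The sort was checked on its own markers. Cd4 was 12.02, 12.14 and 12.50 in SM&M1 and 11.38, 11.50 and 11.02 in Tak1-deficient cells, a fall of 0.92 ± 0.19 (adjusted p = 0.0284) and of 1.02 ± 0.19 (adjusted p = 0.0156) with 15 and 14 arrays, which was not called in 5 of the 6 leave-one-out fits from 15 arrays, the exception being without Tak1-deficient replicate 2. Cd69, the activation marker used for sorting, was 12.36, 12.47 and 12.66 against 12.71, 11.09 and 12.91, and did not pass (adjusted p = 0.709). Qa2 is encoded by several H2-Q genes whose probe sets cannot tell them apart, and these were lower in Tak1-deficient cells. The one shared by H2-Q7 and H2-Q9 had a mean of 12.32 ± 0.28 (SD, n = 3) in SM&M1, 8.79 ± 1.07 (SD, n = 3) in Tak1-deficient cells and 13.86 in M2 cells, with a fold change of -3.53 ± 0.44 (adjusted p = 0.00157 over 21492 probe sets) and of -2.96 ± 0.36 (adjusted p = 0.00108) without replicate 2. Absence of surface Qa2 defined both sorted populations. Il7r, the interleukin-7 receptor, and Bcl2, its survival effector, had fold changes of -0.07 and 0.13 and were not called, nor were the transcription factor of CD4 commitment Zbtb7b (-0.04) and the T cell receptor subunit Cd3e (0.04).

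The NF-κB pathway held only falls among its called members. Of 35 tested genes for NF-κB subunits, IκB proteins and targets, 7 were lower and none higher with 15 arrays (20%, against 1.26% of all genes), and 12 were lower and none higher with 14 (34.3%, against 1.96%). The median of the 35 was -0.52 and -0.57. Called in both fits were Bcl3, Relb, Nfkbib, Ltb, Tnfrsf4, Tnfrsf18 and Birc3.

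Among the subunits and inhibitors, Bcl3, an IκB protein that acts in the nucleus with p50 and p52, was 9.51, 9.82 and 9.61 in SM&M1 and 8.24, 8.30 and 7.22 in Tak1-deficient cells. The groups did not overlap, and Tak1-deficient replicate 3 was lowest. The fold change was -1.73 ± 0.26 (adjusted p = 0.00489), and -1.92 ± 0.27 (adjusted p = 0.00269) with 14 arrays, and Bcl3 was the member of this list called in all leave-one-out fits. Relb, the subunit of the alternative pathway, was 9.80, 10.36 and 10.09 against 8.86, 9.43 and 8.13, with a fold change of -1.27 ± 0.29 (adjusted p = 0.045) and of -1.58 ± 0.25 (adjusted p = 0.00623) without replicate 2, the highest Tak1-deficient array. Nfkbib, which encodes IκBβ, fell by 0.75 and 0.85. Nfkbia, encoding IκBα and itself an NF-κB target, was 13.72, 13.90 and 14.13 against 13.01, 10.69 and 13.03. Its groups did not overlap, and with replicate 2 far below the others it was called only without that array (-0.90 ± 0.15, adjusted p = 0.00844). Nfkb2, encoding p100, was 9.14, 9.54 and 9.52 against 8.74, 11.91 and 8.26. Replicate 2 was the highest of the 6 arrays and the other 2 Tak1-deficient arrays the lowest, so that the fold change was 0.24 with 15 arrays and -0.90 ± 0.19 (adjusted p = 0.0275) with 14. Rela (0.06) and the IκB family gene Nfkbid (-0.12) were not called in either fit. Rel was 8.28, 8.59 and 8.38 against 7.83, 7.64 and 7.73, with no overlap, and missed the threshold (-0.68 ± 0.18, adjusted p = 0.0853).

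Among the targets and ligands, Ltb, the membrane-bound lymphotoxin β, was 13.27, 13.62 and 13.85 in SM&M1 and 12.70, 12.56 and 12.51 in Tak1-deficient cells, a fold change of -0.99 ± 0.19 (adjusted p = 0.019). Birc3, an inhibitor of apoptosis protein that ubiquitinates components of TNF receptor complexes, fell by 0.92 and 1.12, and Traf1, an adaptor of those complexes, was called only with 14 arrays (-0.92, adjusted p = 0.0371). Gadd45b, a stress gene under NF-κB control, was 10.50, 10.51 and 10.24 against 8.24, 9.72 and 7.78. Its groups did not overlap, and it passed only with 14 arrays (-2.41 ± 0.41, adjusted p = 0.00898). Tnfaip3, encoding the deubiquitinase A20, was 11.59, 11.70 and 11.08 against 10.50, 9.77 and 10.36 and did not pass (-1.25, adjusted p = 0.0608). The count of lower genes in this list was 4, 2 and 2 without SM&M1 replicate 1, 2 or 3, and 3 without Tak1-deficient replicate 1, from 15 arrays. From 14 arrays it was 7 without Tak1-deficient replicate 1 and 2 without replicate 3. In RNA of a sorted population, fewer cells that express a gene cannot be told apart from less of its RNA per cell.

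Of 20 tested genes for the TAK1 complex and for kinases and other proteins that activate NF-κB, none was higher. With 15 arrays 3 were lower (15%, against 1.26% of all genes), and with 14 arrays 4 (20%, against 1.96%). These counts include Map3k7, the targeted gene itself. The others were Birc3 and Map3k8 in both fits and Traf1 with 14 arrays, and of these only Map3k8 encodes a kinase. Map3k8, encoding the TPL2 kinase, which activates ERK and is held by the p105 NF-κB precursor, was 8.22, 8.22 and 7.73 against 6.02, 7.0 and 6.57, a fold change of -1.53 ± 0.31 (adjusted p = 0.0245). TAK1's binding partners had fold changes of 1.23 (Tab1), -0.28 (Tab2) and -0.05 (Tab3), and the IKK subunits Ikbkb and Ikbkg of -0.41 and 0.03, none of them called in either fit. In the MAP kinase and AP-1 list of 23 tested genes, 2 were lower with 15 arrays (8.7%, against 1.26% of all genes). With 14 arrays 2 were lower (8.7%, against 1.96%) and 1 higher. Jund, an AP-1 subunit, was 12.93, 12.78 and 13.13 against 11.98, 11.67 and 12.06 and fell in both fits (-1.05 ± 0.18, adjusted p = 0.0136). The mean of all its probe sets gave 0.19 with 15 arrays and did not turn with 14. Its other probe sets were too dim to be tested. Jun was 10.86, 10.78 and 9.90 against 6.5, 6.34 and 7.18, with no overlap, and was called with 15 arrays (-3.84 ± 0.79, adjusted p = 0.028) and not with 14 (-3.67 ± 0.91, adjusted p = 0.053). Jun is also among the genes that respond to tissue dissociation. Of 20 such genes tested, 4 were lower and none higher with 15 arrays (20%, against 1.26% of all genes), and 2 lower with 14 (10%, against 1.96%). Their median log2 level ran from 10.94 to 11.43 in SM&M1 and from 10.13 to 10.47 in Tak1-deficient arrays, and its part in the result was not tested.

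The windows around the starts of the called NF-κB genes were searched for a match to the NF-κB consensus motif on either strand. Sequences are RefSeq's (GRCm38.p6), 300 bases long, from 250 bases before the start of transcription. Of the 7 genes called in both fits, 6 had a window, and 2 of these, Bcl3 and Ltb, held a match, as did 4.51% of all 32851 windows and 606 of 9651 tested genes with a window (6.28%). In Bcl3 the match was GGGAAGTCCC at chr7:19822744-19822753 on the minus strand, with its first base 2 bases after the start site. The 250 bases before the start of Ltb, at chr17:35194257-35194506 on the plus strand, are shown because they hold the match upstream of the gene, with its first base 87 bases before the start, in capitals.
Ltb: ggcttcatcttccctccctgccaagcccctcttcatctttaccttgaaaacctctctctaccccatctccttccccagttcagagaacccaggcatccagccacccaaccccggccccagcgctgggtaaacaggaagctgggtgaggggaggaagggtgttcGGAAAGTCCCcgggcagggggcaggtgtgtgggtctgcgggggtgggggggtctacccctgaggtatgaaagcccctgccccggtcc
A match shows only that these letters occur in the window.

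**Figure D2:**
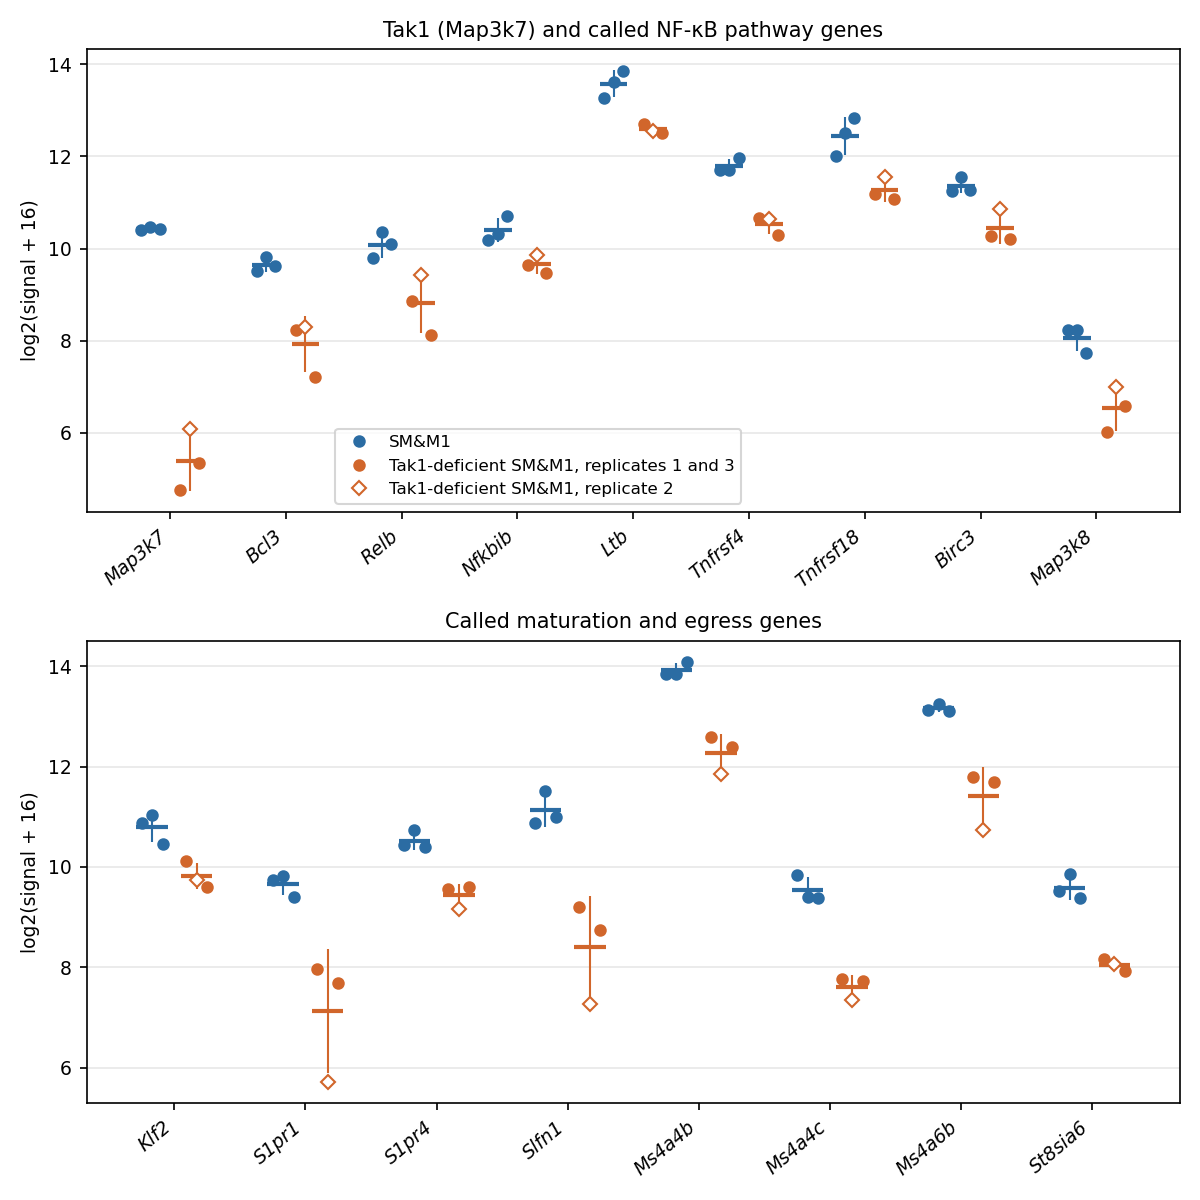
Log2 signal of called genes in each of the 6 arrays, with NF-κB pathway genes and Map3k7 in the upper panel and maturation and egress genes in the lower, SM&M1 in blue and Tak1-deficient cells in orange. Points are arrays, horizontal bars means and vertical bars SDs (n = 3 each). All Tak1-deficient values lie below all SM&M1 values of the same gene, and replicate 2 (open diamond) is the highest Tak1-deficient array for Relb and Birc3 and the lowest for S1pr1 and Slfn1.

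Receptors of the TNF family, which signal through NF-κB and are among its targets, were lower in part. Of 24 tested receptors and ligands, 5 were lower with 15 arrays (20.8%, against 1.26% of all genes) and 7 with 14 (29.2%, against 1.96%). None was higher, and the median was 0.05 and -0.28. Among those called in both fits, Tnfrsf4, Tnfrsf18 and Ltb are also counted in the NF-κB list. Tnfrsf4, the costimulatory receptor OX40, was 11.70, 11.70 and 11.97 in SM&M1 and 10.67, 10.65 and 10.29 in Tak1-deficient cells (-1.25 ± 0.18, adjusted p = 0.00389). Tnfrsf18, encoding GITR, was 12, 12.51 and 12.83 against 11.18, 11.56 and 11.07 (-1.18 ± 0.22, adjusted p = 0.0194). Tnfrsf25, the death receptor DR3, was 8.75, 8.96 and 8.59 against 7.51, 7.16 and 7.41 (-1.41 ± 0.28, adjusted p = 0.023). Tnfrsf1b, the second TNF receptor, was 10.33, 10.47 and 10.56 against 9.54, 9.50 and 9.58 (-0.91 ± 0.13, adjusted p = 0.00389). In each of these the groups did not overlap, and Tnfrsf1b was the one called in all leave-one-out fits. The count of lower genes was 2 without SM&M1 replicate 2 or 3 from 15 arrays, and 4 without SM&M1 replicate 3, 3 without Tak1-deficient replicate 1 and 1 without replicate 3 from 14.

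Tnfrsf4, Tnfrsf18 and Ikzf2 (-0.77 ± 0.16, adjusted p = 0.0255) are also markers of regulatory T cells, which the CD25 gate of the control sort removes. Of 11 tested markers of these cells, those 3 were lower in both fits (27.3%, against 1.26% of all genes with 15 arrays and 1.96% with 14). Gpr83, a receptor of that lineage, was higher with 14 arrays (1.01, adjusted p = 0.0372). Signals summed over 14 measured markers ran from 18721 to 24304 in SM&M1 and from 14714 to 15608 in Tak1-deficient arrays. This sum includes the 3 genes called lower, Tnfrsf18, Tnfrsf4 and Ikzf2, with SM&M1 means of 12.45, 11.79 and 11.55. Its separation is therefore not independent of their calls. The defining marker Foxp3 was too dim to be tested, at 6.09, 6.37 and 6.53 against 6.5, 6.65 and 5.98, and Il2ra, encoding CD25, was 7.47, 6.95 and 7.12 against 6.19, 8.0 and 7.20. Both therefore overlapped between the groups.

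Interferon-stimulated genes were the list with the most falls. Of 51 tested, 20 were lower and none higher with 15 arrays (39.2%, against 1.26% of all genes), and 27 were lower and none higher with 14 (52.9%, against 1.96%). Called in both fits were 19. The median fold change was -0.84 and -1.0, and 48 and 50 of the 51 lay below 0. In 37 of them every Tak1-deficient array was below every SM&M1 array, and in 1 every one was above. Over all 11871 genes tested this was so for 1070 below and 1337 above. The count of lower genes was 9, 7 and 7 without SM&M1 replicate 1, 2 or 3 from 15 arrays. From 14 it was 15, 15 and 14 without SM&M1 replicate 1, 2 or 3, 9 without Tak1-deficient replicate 1 and 6 without replicate 3, and the median stayed between -0.80 and -1.08.

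Antiviral effectors made up much of the list. Ifit1, which binds viral RNA lacking cap methylation, was 11.39, 11.68 and 11.68 in SM&M1 and 9.38, 9.16 and 9.22 in Tak1-deficient cells. All 3 Tak1-deficient arrays, replicate 2 included, lay close together below the controls. The fold change was -2.33 ± 0.34 (adjusted p = 0.00409) and -2.29 ± 0.39 (adjusted p = 0.00858), and PreDP, PostDP and M2 means were 7.84, 8.87 and 12.19, so that the Tak1-deficient level lay between those of PostDP and SM&M1 cells. Ifit3, its partner, was 9.93, 9.77 and 9.74 against 8.25, 8.69 and 7.84 (-1.55 ± 0.27, adjusted p = 0.0136). Oasl2, of the oligoadenylate synthetase family, was 9.94, 10.46 and 10.22 against 6.29, 7.91 and 8.10, with replicate 1 lowest (-2.77 ± 0.42, adjusted p = 0.00472). Its relative Oas3, 9.88, 10.02 and 10.11 against 8.27, 8.46 and 8.41, fell by 1.62 ± 0.33 (adjusted p = 0.0245). Rsad2, encoding viperin, was 10.51, 10.77 and 10.47 against 9.33, 9.34 and 8.33, and fell by 1.58 ± 0.37 (adjusted p = 0.0493). The GTPase gene Iigp1 fell by 1.89 and 1.92, and the ubiquitin ligase gene Herc6 by 1.71 and 1.68.

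Ifi27l2a, a small mitochondrial protein gene induced by interferon, was 13.40, 13.26 and 13.92 in SM&M1 and 11.11, 11.08 and 11.04 in Tak1-deficient cells, a fold change of -2.45 ± 0.41 (adjusted p = 0.0102) in a group of 3 that spanned less than the control arrays. Xaf1, a proapoptotic interferon-stimulated gene, was 12.10, 12.12 and 12.19 against 8.09, 9.78 and 9.76 (-2.93 ± 0.37, adjusted p = 0.00154). Another probe set of Xaf1 went the other way, with 2.84 and 3.11, so the direction for this gene rests on the probe set chosen by its mean signal. Slfn8, of the Schlafen family, was 10.85, 11.17 and 11.35 against 7.31, 9.95 and 9.31 (-2.26 ± 0.50, adjusted p = 0.0421), with the spread among Tak1-deficient arrays larger than in most members. Xaf1, Oasl2 and Herc6 were called in all leave-one-out fits, and the other 16 of the 19 were not called in at least 1.

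Among sensors and regulators of the interferon response some members fell, while the sensors Ddx58 (-0.31, adjusted p = 0.378) and Dhx58 (-1.58, adjusted p = 0.153) and the regulator Irf1 (-0.29, adjusted p = 0.415) were not called in either limma fit. Ifih1, encoding the RNA sensor MDA5, was 10.81, 11.06 and 10.55 against 9.52, 8.66 and 9.33 (-1.64 ± 0.28, adjusted p = 0.0131), and Zbp1, a nucleic acid sensor, fell by 1.10 and 1.26. Usp18, which removes ISG15 from proteins and restrains the interferon receptor, was 10.80, 11.17 and 10.60 against 9.23, 8.48 and 8.95 (-1.96 ± 0.37, adjusted p = 0.0204). Irf9, the DNA-binding subunit of ISGF3, was 11.66, 11.89 and 11.85 against 11.23, 11.07 and 10.87, a smaller fall of 0.75 ± 0.16 (adjusted p = 0.0321). Irf7, the transcription factor that amplifies interferon production, was called only with 14 arrays (-1.08, adjusted p = 0.0426), replicate 2 at 11.34 lying above all SM&M1 arrays. Among the 15 tested genes from the interferon receptors to the STAT proteins, Usp18 and Irf9 were the members called, in both fits (13.3%). Over all genes, 1.26% were lower with 15 arrays and 1.96% with 14. The receptor chains Ifnar1 (0.24) and Ifnar2 (-0.56), the kinases Jak1 (0.12) and Tyk2 (-0.09) and Stat2 (0.64) were not called in either fit. Interferon also induces antigen presentation genes, and of 16 tested in the MHC class I list 2 were lower with 15 arrays (12.5%) and 3 with 14 (18.8%). Psmb10, a catalytic subunit of the immunoproteasome, was 12.11, 12.21 and 12.33 against 11.43, 11.46 and 11.39 (-0.79 ± 0.17, adjusted p = 0.0357).

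**Figure D3:**
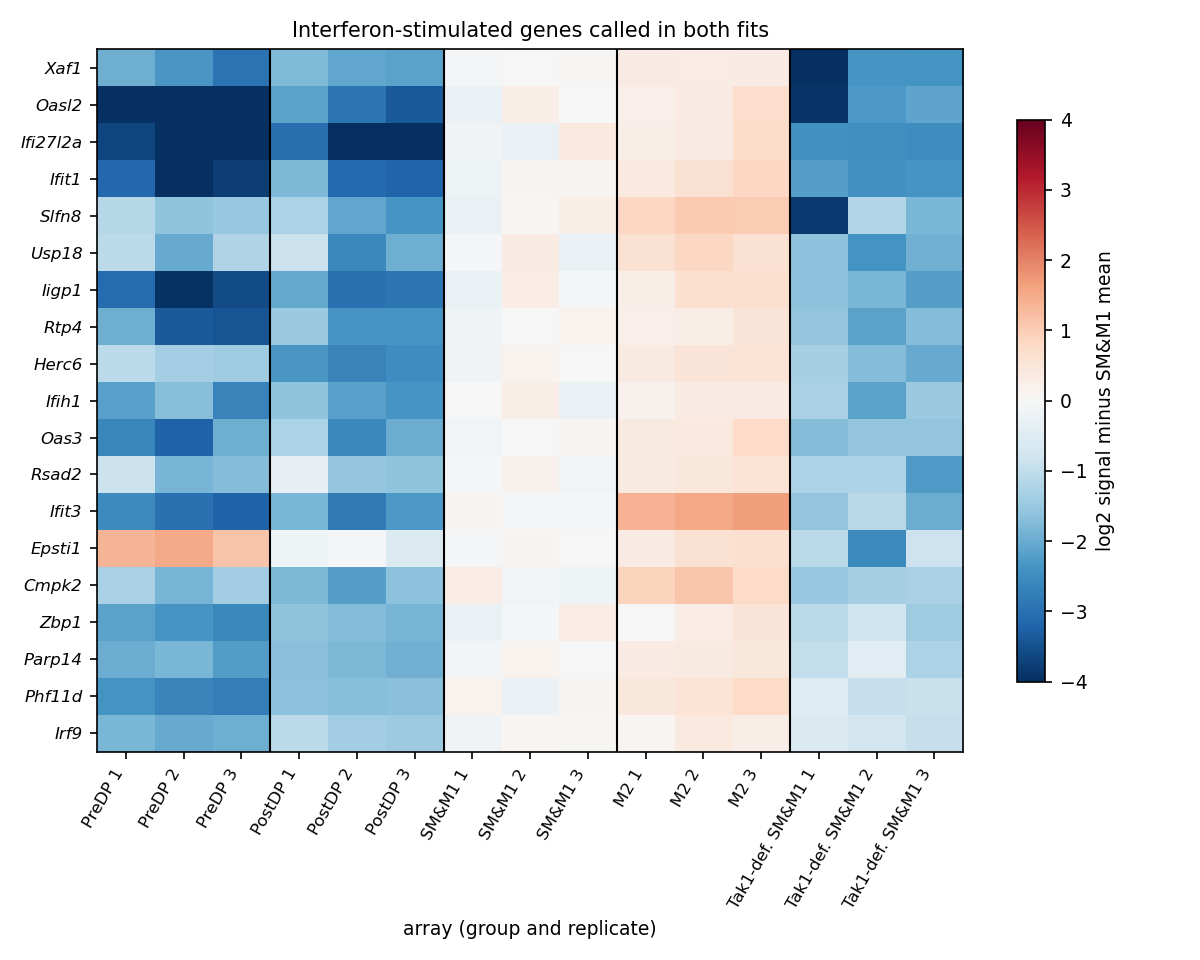
Log2 signal minus the SM&M1 mean of the same gene, for the 19 interferon-stimulated genes called in both fits (rows, by fold change) in all 15 arrays (columns, by group), with the colour scale ending at -4 and 4. The 3 Tak1-deficient arrays at the right are below the SM&M1 mean for all 19 genes, and M2 arrays are near or above it. Double-positive cells are lower for most, with Epsti1 above it in PreDP.

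An interferon response motif, GAAANNGAAA on either strand, was searched for in the windows of the interferon-stimulated genes called in both fits. Of the 19, 13 had a window in the table, and 6 of them (46.2%) held the motif, as did 3.44% of all 32851 windows and 364 of 9651 tested genes with a window (3.77%). Ifit1, Slfn8 and Ifih1 are given because they are the largest falls that held it. The match in Ifih1, GAAACAGAAA, was at chr2:62646214-62646223 on the minus strand, 32 bases after the start. The windows before the start of Ifit1 (chr19:34640639-34640888, plus strand) and of the upstream start site of Slfn8 (chr11:83020811-83021060, minus strand) read as follows, with matches in capitals.
Ifit1: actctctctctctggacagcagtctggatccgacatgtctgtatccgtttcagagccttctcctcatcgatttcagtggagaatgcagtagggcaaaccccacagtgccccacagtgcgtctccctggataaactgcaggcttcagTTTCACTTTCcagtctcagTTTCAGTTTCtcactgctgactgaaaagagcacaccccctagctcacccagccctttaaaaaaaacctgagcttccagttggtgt
Slfn8: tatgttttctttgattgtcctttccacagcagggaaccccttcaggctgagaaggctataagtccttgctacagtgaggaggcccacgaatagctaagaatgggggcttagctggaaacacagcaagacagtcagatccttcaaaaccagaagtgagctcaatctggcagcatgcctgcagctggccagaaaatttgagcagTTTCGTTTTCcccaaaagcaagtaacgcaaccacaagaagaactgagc
Ifit1 held 2 matches, with first bases 104 and 85 bases before the start, and Slfn8 held 1, at 48 bases. None of these windows also held the NF-κB motif. Xaf1 and Oasl2, with larger falls, had no match in the 300 bases, which says only that these letters do not occur there.

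Some of the genes that increase as CD4 thymocytes mature and become able to leave the thymus were lower in Tak1-deficient cells. Of 40 tested, 8 were lower and none higher with 15 arrays (20%, against 1.26% of all genes), and 12 were lower and none higher with 14 (30%, against 1.96%), with medians of -0.44 and -0.48. Klf2, the transcription factor that induces the egress receptor, was 10.87, 11.03 and 10.46 against 10.11, 9.74 and 9.60 (-0.97 ± 0.20, adjusted p = 0.0261). S1pr1, the sphingosine 1-phosphate receptor that guides mature thymocytes into the blood, was 9.73, 9.81 and 9.41 against 7.97, 5.71 and 7.69, with replicate 2 lowest. Its fold change was -2.53 ± 0.47 (adjusted p = 0.0182) and -1.82 ± 0.29 (adjusted p = 0.00569), and the M2 mean was 11.75. S1pr4, a related receptor, was 10.43, 10.73 and 10.39 against 9.55, 9.17 and 9.59 (-1.08 ± 0.15, adjusted p = 0.00287). Slfn1, a Schlafen gene of mature quiescent T cells, was 10.88, 11.52 and 11 against 9.20, 7.27 and 8.75 (-2.73 ± 0.54, adjusted p = 0.0235).

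Members of the Ms4a family, tetraspanning membrane proteins, gave some of the most stable differences. Ms4a4b was 13.85, 13.85 and 14.09 against 12.59, 11.85 and 12.38 (-1.66 ± 0.20, adjusted p = 0.00119). Ms4a4c was 9.84, 9.40 and 9.38 against 7.76, 7.34 and 7.73 (-1.93 ± 0.23, adjusted p = 0.00119). Ms4a6b was 13.12, 13.24 and 13.11 against 11.80, 10.74 and 11.70 (-1.74 ± 0.23, adjusted p = 0.00187). St8sia6, a sialyltransferase of late thymocyte maturation, was 9.51, 9.86 and 9.39 against 8.16, 8.06 and 7.93 (-1.54 ± 0.20, adjusted p = 0.00154). These 4 genes and S1pr4 were called in all leave-one-out fits, and their means in M2 cells were 14.59, 11.12, 14.04, 11.81 and, for S1pr4, 12.17. Not all maturation genes were lower. Ccr7, the receptor for medullary chemokines, was 12.78, 12.96 and 13.12 against 12.82, 13.19 and 12.25 and overlapped. Il6ra was 10.68, 11.11 and 10.73 against 8.97, 9.82 and 9.01 and missed the threshold (-1.57, adjusted p = 0.0962). The count of lower genes was 5 without SM&M1 replicate 1 or 2 from 15 arrays, and 7 without SM&M1 replicate 2 or 3 or Tak1-deficient replicate 1 and 5 without Tak1-deficient replicate 3 from 14.

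Of 26 chemokine and migration receptors tested, 4 were called lower with 15 arrays (15.4%, against 1.26% of all genes) and 5 with 14 (19.2%, against 1.96%). None was called higher, and the other 22 and 21 were not called. Ccr8, a receptor for thymic chemokines, was 9.19, 9.62 and 9.44 against 7.55, 8.02 and 7.01 (-1.89 ± 0.24, adjusted p = 0.00154), with M2 at 8.05. Cd44, the hyaluronan receptor, is counted below among the T cell receptor-induced genes and not in this list. It was 11.32, 11.30 and 10.79 against 9.76, 9.23 and 9.67 (-1.58 ± 0.20, adjusted p = 0.00157). Ccr8 and Cd44 were called in all leave-one-out fits. Gpr132, a lysolipid-sensing receptor, fell by 0.90 and 1.11. Among 26 cytokine receptors, Il21r, the interleukin-21 receptor, fell by 0.63 and 0.62. Il10ra, the interleukin-10 receptor, was 7.34, 7.31 and 7.12 against 8.52, 7.80 and 8.68 and rose (1.08 ± 0.20, adjusted p = 0.0156), while its second probe set gave -1.02 and -0.38. Cd44 and Il2rb are also markers of effector and memory T cells. Of 21 tested markers of that state, 2 were lower with 15 arrays (9.52%) and 1 with 14 (4.76%). Their summed signals ran from 42575 to 52769 in SM&M1 and from 40096 to 51295 in Tak1-deficient arrays.

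Genes of the double-positive stage, which SM&M1 cells have largely switched off, pointed upward without a call. None of 34 tested passed in either fit, their medians were 0.58 and 0.53, 4 lay below 0, and 8 were higher without overlap and none lower. Over all 11871 genes tested, 1337 were higher and 1070 lower without overlap. At an unadjusted p under 0.05 in limma, 11 and 12 of the 34 passed in the 2 fits, beside 2128 and 2171 of all 11871 genes. Cd8a was 8.03, 7.68 and 7.65 in SM&M1 and 9.28, 10.22 and 9.38 in Tak1-deficient cells on its main probe set, with no overlap, and missed the threshold (1.84 ± 0.43, adjusted p = 0.051, and 1.55 ± 0.46, adjusted p = 0.0976). Another Cd8a probe set passed in both limma fits over all probe sets (1.95 ± 0.27, adjusted p = 0.00312, and 1.97 ± 0.3, adjusted p = 0.0052). The remaining Cd8a probe sets were higher in both fits and did not pass. Cd8b1 was 10.54, 10.28 and 10.21 against 10.91, 11.14 and 11.17 (0.73, adjusted p = 0.0592). Rag1 was 10.55, 6.93 and 7.68 against 9.83, 8.85 and 11.20, with PreDP at 14.47 and PostDP at 12.31. SM&M1 replicate 1 was therefore well above its group for Rag1, and the groups overlapped. Cd24a, which falls with maturation, was 12.08, 11.85 and 11.71 against 12.63, 12.23 and 13.14 (0.79, adjusted p = 0.458). In the lineage list, Ctsw, a cathepsin, fell from 11.58, 11.64 and 11.52 to 10.10, 10.97 and 10.52 (-1.05 ± 0.20, adjusted p = 0.0194), and Gata3, a factor of the CD4 lineage, was called higher only with 14 arrays (0.54, adjusted p = 0.0433).

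Of 40 T cell receptor-induced genes tested, 3 were lower with 15 arrays (7.5%, against 1.26% of all genes), and 4 were lower (10%, against 1.96%) and 2 higher with 14, with medians of 0.03 and 0.01. Those lower in both fits were Cd44 and Ikzf2, whose values are given above. At an unadjusted p under 0.05 in limma, 15 of the 40 passed in each fit, against 2128 and 2171 of all 11871 genes. Nr4a1, an immediate early gene of receptor signalling, was 12.71, 12.80 and 12.59 against 12.80, 13.06 and 12.81 (0.19, adjusted p = 0.539), and Cd5, whose level follows receptor signal strength, had a fold change of 0.13. Nr4a3, a related gene, was 11.05, 11.38 and 11.16 against 10.38, 10.93 and 10.04 and was called only with 14 arrays (-0.99 ± 0.18, adjusted p = 0.0107). Dusp6, an ERK phosphatase, was called higher with 14 arrays (1.06 ± 0.25, adjusted p = 0.0426), replicate 2 at 11.35 lying within the SM&M1 range. The 30 CD3 chain and proximal signalling genes, the 48 cell cycle genes and the 45 oxidative phosphorylation genes had no call in either limma fit. At an unadjusted p under 0.05, 8 and 6, 4 and 3, and 5 and 4 of them passed with 15 and 14 arrays. Of 31 survival and apoptosis genes, Birc3 fell in both fits and Ripk3, a kinase of necroptosis, was called higher with 14 arrays (0.57, adjusted p = 0.0465). Of 17 glycolysis genes, the lactate transporter gene Slc16a1 was called, higher, with 14 arrays (0.99, adjusted p = 0.00354). Of 23 cholesterol genes, the lipid exporter gene Abca1 fell (-1.79 ± 0.40, adjusted p = 0.0421), with a second probe set at 0.59. The 36 tested ribosomal protein genes had medians of 0.12 with 15 arrays and -0.31 with 14, a sign that turned with replicate 2, and 1 call, of Rps6, with 15 arrays (-0.78, adjusted p = 0.0387).

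**Figure D4:**
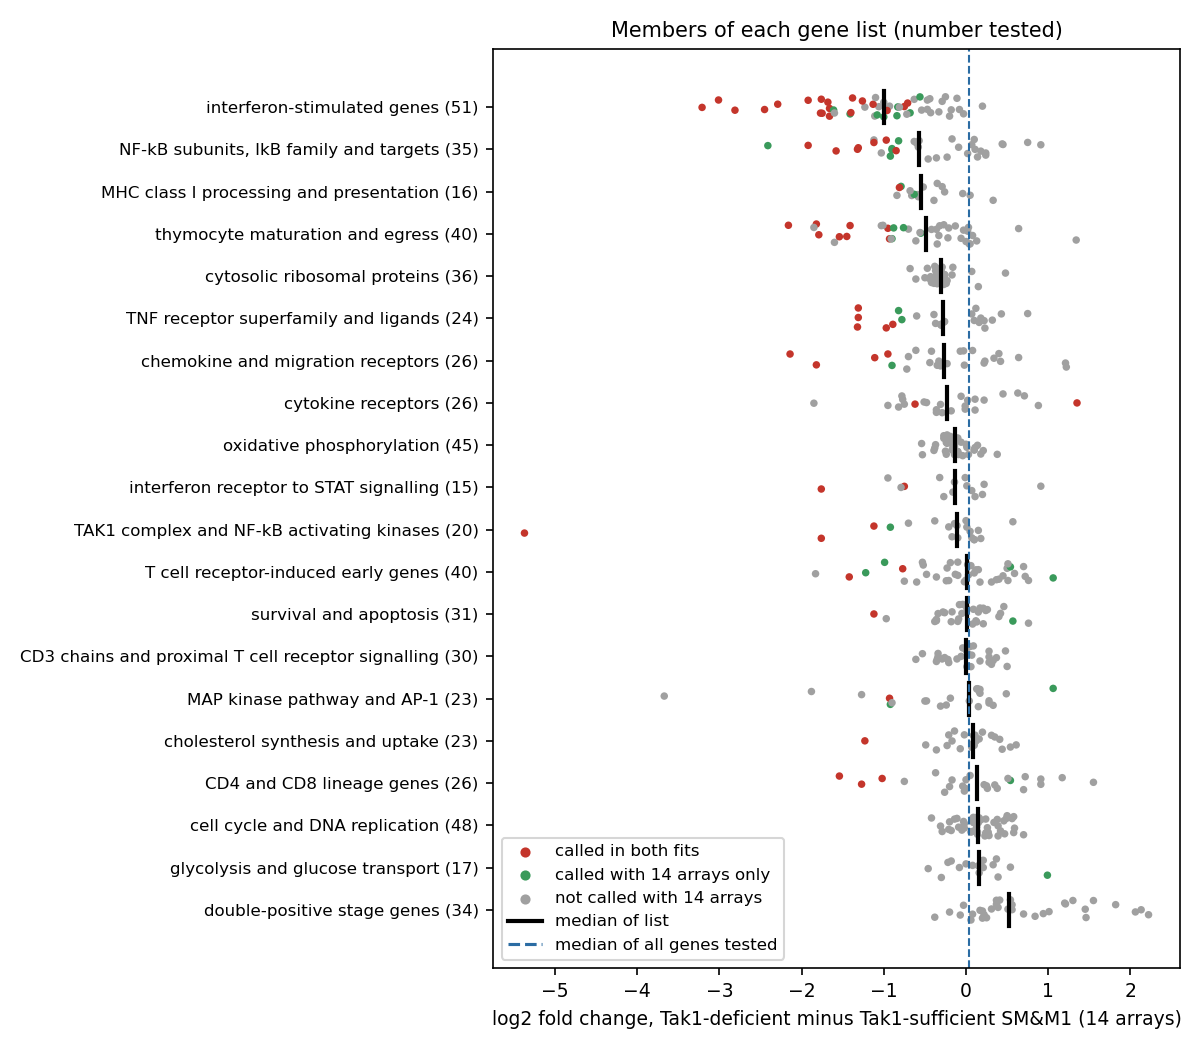
Log2 fold change from 14 arrays of every tested member of each gene list (points, with the number tested in parentheses), the list median (black bar) and the median of all genes tested (dashed line). The interferon-stimulated genes have the lowest median (-1.0), followed by the NF-κB list (-0.57), and the double-positive stage genes the highest (0.53) with no call.

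The largest rises belonged to genes outside these pathways. Gdpd3, a lysophospholipase D, was 7.86, 8.58 and 8.29 in SM&M1 and 12.04, 12.71 and 11.98 in Tak1-deficient cells. All 3 Tak1-deficient arrays agreed on a level far above every other group, whose means were 7.87 (PreDP), 7.49 (PostDP) and 8.35 (M2). The fold change was 4.0 ± 0.27 (adjusted p = 7.41e-06) and 3.76 ± 0.26 (adjusted p = 1.92e-05). Zdhhc12, a palmitoyltransferase, was 6.70, 7.84 and 6.51 against 9.69, 9.41 and 9.69 (2.58 ± 0.51, adjusted p = 0.0227). Lrrn4, a leucine-rich repeat membrane protein, was 6.05, 5.38 and 6.09 against 8.03, 7.85 and 8.28 (2.21 ± 0.26, adjusted p = 0.00119). Rap1gap2, which inactivates the integrin regulator Rap1, was 7.69, 7.58 and 7.05 against 10.12, 8.58 and 9.33 (1.90 ± 0.32, adjusted p = 0.00987). H2-T3, the nonclassical MHC gene of the thymus leukaemia antigen, was 7.67, 7.31 and 6.94 against 9.03, 8.74 and 9.10 (1.65 ± 0.22, adjusted p = 0.00254). Tlr12 rose by 1.97 and 2.5 on its main probe set, and its other probe set gave -1.22 and -1.78.

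Further rises were smaller. Cpt1a, which carries fatty acids into mitochondria, was 9.86, 9.70 and 9.25 against 10.72, 11.66 and 10.96 (1.51 ± 0.23, adjusted p = 0.00489). Eng, a coreceptor for TGF-β family ligands, had a mean of 8.62 ± 0.22 (SD, n = 3) in SM&M1 and 10.13 ± 0.22 (SD, n = 3) in Tak1-deficient cells (1.51 ± 0.27, adjusted p = 0.0144). Its ligand gene Tgfb1, named here after its values were seen, was 11.29, 11.37 and 11.32 against 10.31, 10.21 and 10.10 (-1.12 ± 0.13, adjusted p = 0.00119), tight in both groups. Dmwd, Zfp286, Tmem151b and Adam11 rose by 1.41 to 1.66. Of the 12 largest rises, Tlr12, Dmwd, Tmem151b, Zfp286, Zdhhc12, Lrrn4 and H2-T3 had higher means in PreDP and PostDP than in SM&M1 cells. For Tlr12 these were 9.03, 8.94 and 5.24, for Dmwd 8.15, 10.44 and 7.3, and for Tmem151b 9.4, 8.67 and 7.14. Cpt1a and Eng were higher than in SM&M1 only in PostDP cells, and Gdpd3, Rap1gap2 and Adam11 in neither. The part of maturation stage in these rises was not tested. Gdpd3, Lrrn4, Dmwd and H2-T3 were called in all leave-one-out fits, while Zdhhc12 was not called without SM&M1 replicate 1 or 3 or Tak1-deficient replicate 1 from 15 arrays.

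Among the largest falls outside the lists, Pglyrp1, a secreted peptidoglycan recognition protein, was 7.65, 7.38 and 7.35 against 4.44, 5.45 and 5.80 (-2.23 ± 0.26, adjusted p = 0.00119), with M2 at 8.83. Lad1, encoding ladinin, was 10.55, 10.70 and 10.63 against 8.33, 9.48 and 7.99 (-2.03 ± 0.34, adjusted p = 0.0101). Pym1, a factor that disassembles exon junction complexes, was 8.67, 8.59 and 9.0 against 6.64, 6.15 and 7.31 (-2.06 ± 0.28, adjusted p = 0.00257). Golt1b, a vesicle transport gene, fell by 2.40 and 1.67 on its main probe set and had 0.10 and 0.27 on another. The formin gene Inf2, named after its values were seen, was 9.46, 9.32 and 9.26 against 7.74, 7.82 and 7.55 (-1.64 ± 0.14, adjusted p = 6.67e-05).

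Markers of several other cell types varied widely between arrays of one genotype. Neutrophil and monocyte markers, over 14 measured genes, had summed signals of 4970, 798 and 1144 in SM&M1 and 1598, 5700 and 6775 in Tak1-deficient cells. SM&M1 replicate 1 and Tak1-deficient replicates 2 and 3 were the high arrays, and the groups overlapped. S100a8, a calcium-binding protein of granulocytes, was 10.83, 5.41 and 5.40 against 6.90, 9.49 and 11.18. Over 24 macrophage genes the sums were 8139, 6666 and 7048 against 6770, 9662 and 9295. For 19 genes of natural killer and innate-like T cells they were 7575, 4191 and 4000 against 4702, 7759 and 8406. Of 16 such genes tested, Il2rb was called lower with 15 arrays (-0.99, adjusted p = 0.0357), and of 13 dendritic cell markers Bst2, which interferon also induces, was called lower with 14 (-1.61, adjusted p = 0.0171). None of the 13 macrophage, 10 neutrophil and 11 B cell markers tested was called in either limma fit. At an unadjusted p under 0.05, 2 and 2, 2 and 1, and 0 and 1 of them passed with 15 and 14 arrays, beside 2128 and 2171 of all 11871 genes. The part of these markers in the results was not tested. Sex-linked genes differed too. Xist was 13.28, 13.30 and 13.78 in SM&M1 and 7.54, 14.01 and 7.42 in Tak1-deficient cells, and the Y-linked Eif2s3y was 10.40, 10.62 and 9.62 against 11.38, 4.33 and 11.49. All SM&M1 arrays were high for both, so each held RNA of male and female cells. Tak1-deficient replicates 1 and 3 were high for Eif2s3y and low for Xist, and replicate 2 was high for Xist and low for Eif2s3y. The fit of 14 arrays therefore set 2 arrays of male pattern against 3 of both sexes. The labels used here give no sex. The part of sex in these results was not tested.

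**Figure D5:**
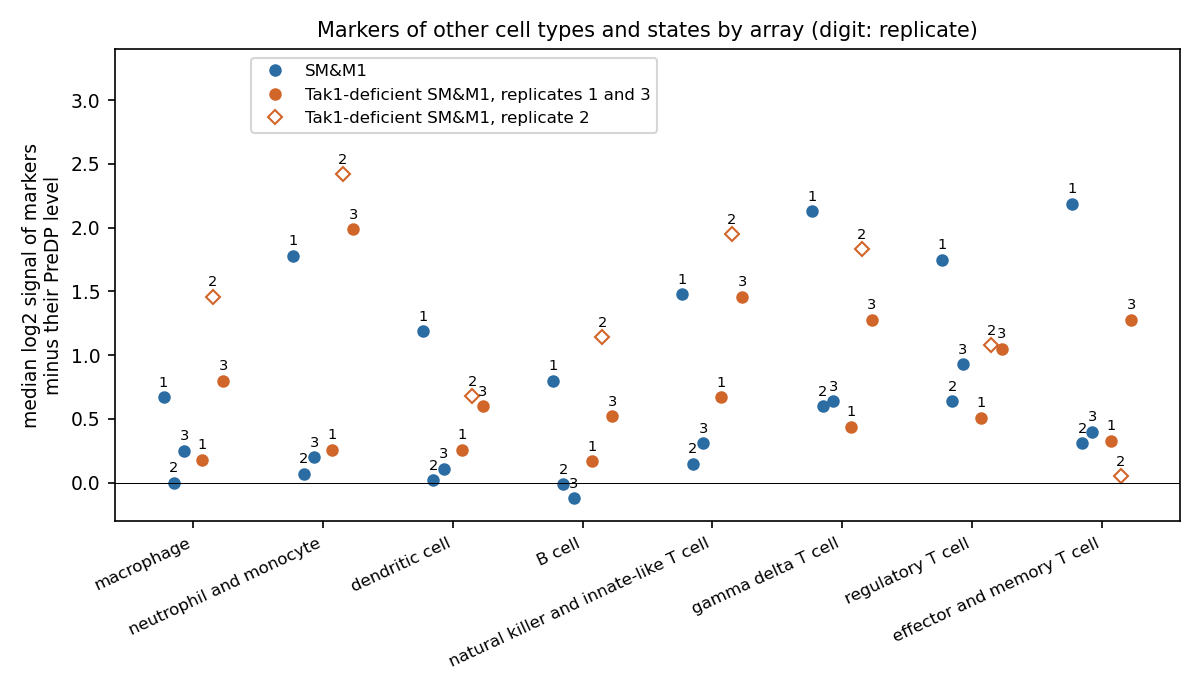
Median log2 signal of the markers of 8 other cell types or states, minus their PreDP level, in each of the 6 arrays (digits are replicate numbers). SM&M1 replicate 1 and Tak1-deficient replicates 2 and 3 are the highest for neutrophil and natural killer markers. By this median none of the 8 lists separates the genotypes. The summed signal of the regulatory T cell markers does, but it includes Tnfrsf4, Tnfrsf18 and Ikzf2, which were called lower.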

How the data were processed

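The deposited values are linear signal intensities per probe set from Affymetrix arrays of 15 samples, 3 in each of 5 groups, with 1 array per sample. How the authors computed these intensities is not given in the sources used here. The values show a common scale, with a mean of 500 on every array once the top and bottom 2% of probe sets are set aside. Amplification took a single round, per the labels' protocols. The labels' term is biological replicate, with no word on whether each was a separate animal. Each SM&M1 array was high for both Xist and the Y-linked Eif2s3y, and so held RNA of more than 1 mouse. The p-values speak only for the spread among these samples, part of which may be technical.

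The deposited intensities were taken as log2(signal + 16), so a fold change understates that of dim genes. Of 45101 probe sets, 34945 had 1 gene in the platform's annotation table, 932 several, 9160 none and 64 were controls, and 34741 were given a current symbol through RefSeq (GRCm38.p6). Each of 18193 genes was represented by its brightest probe set (by mean log2 signal of all 15 arrays), which can disagree with its other probe sets. Of the 170 genes called in both fits, 76 had another probe set above the limit for testing. In 50 of these 76, all such probe sets had the same direction as the main one in both fits, and in the rest at least 1 did not. The 11871 genes above the array median in at least 3 arrays were tested with limma 3.58.1 (R 4.3.3), with 1 mean per group, 10 residual degrees of freedom from 15 arrays and 9 from 14, and no block. P-values were adjusted over all of them by the Benjamini-Hochberg method, and an adjusted p under 0.05 was the threshold for a call. The scripts were tested on simulated data.

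Replicate numbers come from the labels. Same-numbered samples of the 2 groups compared deviated from their group means with correlations of -0.174, -0.192 and -0.244. The numbers were therefore not taken to pair these 2 groups. Other same-numbered arrays shared traits. S100a8 was 10.83, 5.41 and 5.4 in SM&M1 and 10.9, 6.82 and 4.95 in M2 cells. Eif2s3y was 4.4, 11.73 and 4.1 in PreDP and 4.17, 11.33 and 4.11 in PostDP cells. The main fits count these arrays as independent, so their residual degrees of freedom may be too many. The comparison, gene lists, tests and alternatives were chosen with earlier results of these data known. Named genes were the 12 largest falls and 12 largest rises among genes called and at least 2-fold changed in both fits without overlap, up to 4 called members of each list (or the largest change), and the check genes; other list members and genes said to be so were named after their values were seen. Lists were described by counts and medians, without a set test. They share some members, such as Birc3, Tnfrsf4 and S1pr1, so the counts of different lists are not independent. Promoter windows were searched over their 300 bases, of which up to 250 before the start are printed.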

Additional observations from a re-analysis of the deposited data

How the results depend on the processing

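For named genes called in the reported fit or under the alternative, the direction turned once within a set of arrays: the mean of all probe sets gave 0.19 for Jund with 15 arrays. Between the fits of 15 and 14 arrays, 5 of 87 named genes turned, Cd69, Eif2s3y, Id2, Izumo1r and Mcm5, none of them called in either fit. Against 201 calls with 15 arrays and 347 with 14, there were 5 and 136 in fits of only the 2 groups, 114 and 183 without the filter on dim genes, 97 and 169 with arrays centred on their medians, and 373 and 734 with array weights, where the fit ended before its convergence tolerance was met. Centring moved the median of all genes from 0.055 to -0.093 with 15 arrays, where 13.4% of calls were higher against 25.4%, and gave 42.6% against 32.9% with 14. With the replicate block over all groups there were 195 and 405 calls. With the replicate block over only the 2 groups there were 0 and 2 (658 at an unadjusted p under 0.05 in limma with 15 arrays). Leaving out 1 array gave 65 to 347 calls from 15 arrays and 100 to 234 from 14, where a lone Tak1-deficient array is assumed to vary like the others. Quantile normalization, a filter at the 75th percentile, the mean of all probe sets, a pseudocount of 1 and the trend and robust options kept the count within 1.5 times, at 164 to 279 and 317 to 478. The cause of these shifts was not tested, except that fewer samples enter some fits. Most calls were absent from the fits of only the 2 groups. Those fits have another estimate of spread and fewer residual degrees of freedom, and the parts of the 2 were not tested.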

Other observations

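Of the 36 genes called in both fits and in all leave-one-out fits, 23 are in none of the gene lists (6 higher, 17 lower), and several of them have known roles. They are named here after their values were seen, with limma's adjusted p from 15 arrays. Cd7, a costimulatory surface protein, was 10.31, 10.28 and 10.15 in SM&M1 and 9.0, 8.07 and 8.86 in Tak1-deficient cells (-1.60 ± 0.21, adjusted p = 0.00157). Gpr171, a receptor of T cells, was 10.88, 10.78 and 10.71 against 9.36, 8.47 and 9.35 (-1.72 ± 0.21, adjusted p = 0.00154). Pde3b, a cyclic nucleotide phosphodiesterase, was 11.86, 11.86 and 11.91 against 10.31, 9.94 and 10.37 (-1.67 ± 0.17, adjusted p = 0.000783), with M2 cells at 12.74. Casp4, the inflammatory caspase that senses lipopolysaccharide, was 6.18, 6.94 and 7.29 against 4.48, 5.34 and 4.88 (-1.90 ± 0.29, adjusted p = 0.00496). Psme3, encoding the PA28γ proteasome activator, was 10.23, 10.29 and 10.28 against 9.30, 8.39 and 9.06 (-1.36 ± 0.21, adjusted p = 0.00492). Among the 6 higher was Nrros, which anchors latent TGF-β, at 9.73, 9.84 and 9.68 against 10.68, 10.60 and 10.61 (0.88 ± 0.13, adjusted p = 0.00489). In each of these genes the groups did not overlap.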
